A study of Mus musculus with 4 samples.

Results

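Il1a/Gpr84 inflammatory microglia were taken as cells in which both Il1a, the gene of the cytokine interleukin-1 alpha, and Gpr84, the gene of a receptor for medium-chain fatty acids, were detected. In the raw count matrices, a cell was kept with at least 500 genes, at least 1000 unique molecular identifiers (UMIs, the counted RNA molecules) and at most 10% mitochondrial UMIs. It counted as microglia when at least 2 of the 4 genes Sall1, Siglech, P2ry12 and Tmem119 were detected. At least 1 UMI of Il1a and 1 of Gpr84 were then required. Cells were left out at 10 or more UMIs of Cst7 and Lpl per 10000, 10 or more of Ifi27l2a, 100 or more of Lyz2, any Cd5l, 4 or more of 6 interferon genes or 3 or more of 6 cell cycle genes, which sets aside other injury states. This left 2470 cells of 8018 past the filters (30.8%, exact 95% interval 29.8 to 31.8%). Of these, 391 came from wild-type sham, 593 from wild-type injured, 555 from knockout-labelled sham and 931 from knockout-labelled injured tissue.

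Microglia are the resident macrophages of the brain. Injury signals that reach their Toll-like, IL-1 and purine receptors act through the transcription factor NF-kB and the MAP kinases, which switch on cytokines such as IL-1 alpha, IL-1 beta and TNF and chemokines such as Ccl3, together with inhibitors that shut the same pathways off again (Nfkbia, Tnfaip3, the MAP kinase phosphatase Dusp2). IL-1 alpha from microglia is known to act on astrocytes. The same early genes are also known to be induced in microglia by warm enzymatic dissociation of tissue.

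The study sequenced CD11b-positive cells from the brain of mice aged 8 to 12 weeks, with 1 mouse and 1 library in each of 4 groups. Wild-type (IL6 +/+) and knockout (IL6 -/-) mice had either sham surgery or a cerebrovascular injury, in which pulsed ultrasound was applied over a thinned skull window after intravenous microspheres, and were taken 6 days later. Which of 2 severities of injury these mice had, mild or severe, is not in the labels, which elsewhere call the sham mice uninjured. Tissue from a 4 mm punch was dissociated with a kit, myelin was taken out and cells with CD11b were captured on beads, so the cells are a selection of the myeloid cells of the punch.

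The comparisons ask how these microglia differ after the injury and in the mice labelled as lacking IL-6. Members carried medians of 11315 (wild-type sham), 8012 (wild-type injured), 10380 (knockout-labelled sham) and 9192 UMIs (knockout-labelled injured), and 5280361 to 9297317 UMIs in sum. Of all barcodes past the filters, 23 occurred in both sham libraries, and 20 of these were a member in one of them. The shallower copy held 1.56 to 2.20% of the UMIs of the deeper one. Any other pair of libraries shared 1 or 2 barcodes. Il6, on chromosome 5 (30013114 to 30019981, plus strand, GRCm38), was detected in members of all 4 libraries, at 11.5 CPM (UMIs per 1000000 UMIs of the summed cells; 95% Poisson interval 9.03 to 14.4) in wild-type sham, 7.20 (5.09 to 9.88) in wild-type injured, 26.2 (22.6 to 30.1) in knockout-labelled sham and 18.7 (16.04 to 21.7) in knockout-labelled injured members. Both knockout-labelled libraries lay above both wild-type libraries. The labels do not name the targeted exon and these libraries read the 3′ end, so Il6 does not check the genotype, and "knockout-labelled" is used throughout. All intervals reflect counting error alone, with no share for variation among mice.

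The cells carried the markers of the label. Ccl3, a chemokine gene on chromosome 11, was detected in 69.3, 86.2, 67.4 and 88.8% of members (order kept below: wild-type sham, wild-type injured, knockout-labelled sham, knockout-labelled injured). Dusp2 was detected in 68.5, 64.1, 47.6 and 64.0%, and Rrad, which encodes a small GTP-binding protein, in 50.9, 50.6, 38.9 and 48.1%. All 8 microglia markers were present in every library, of which 4 are the genes of the microglia gate and so were fixed by the rule. Fcrls, Gpr34 and Olfml3 are among those it did not use. Marker sums of other cells in the same order were 73.4, 47.2, 29.0 and 34.4 CPM for 7 genes of border-associated macrophages and 0.62, 0.38, 0.27 and 0.11 CPM for 6 lymphocyte genes. Astrocyte markers (5 genes) summed to 193.3, 167.4, 229.3 and 172.8 CPM and oligodendrocyte markers (5 genes) to 173.0, 150.0, 190.2 and 136.6 CPM. Endothelial markers (6 genes) summed to 49.9, 48.7, 25.1 and 18.1 CPM. The 7 neutrophil markers summed to 1890, 286.2, 212.5 and 195.3 CPM. Without Csf3r, which microglia also express, the other 6 came to 1674, 96.4, 0.66 and 0.86 CPM. In the wild-type sham library that sum fell on few cells, since 1 member of 74830 UMIs held 2016 of the 4055 UMIs of S100a8. Without cells of shared barcodes the sum there was 212.5 CPM. The defining markers S100a8, Retnlg, Ngp, Mmp8 and Camp were at 0 in the members of the knockout-labelled sham library.

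Il1a lies on chromosome 2 (129299610 to 129309972, minus strand) and Gpr84 on chromosome 15 (103308235 to 103310612, minus strand). Both chose the cells, so their levels are a description. Il1a stood at 515.8, 776.5, 573.7 and 854.0 CPM, and Gpr84 at 268.1, 605.3, 346.7 and 627.2 CPM. For both genes the 2 injured libraries lay above the 2 sham libraries. The injured level was 1.51 (95% interval 1.44 to 1.58) times the sham level for Il1a in wild type and 1.49 (1.43 to 1.55) times in the knockout-labelled pair. For Gpr84 the ratios were 2.26 (2.13 to 2.40) and 1.81 (1.73 to 1.90). The median member held 4 or 5 UMIs of Il1a and 3 or 4 of Gpr84, and the highest held 74 and 49. Exactly 1 UMI of each gene was found in 38, 40, 67 and 51 members, the cells just inside the rule. Just outside it were 132, 138, 231 and 171 microglia with Il1a alone and 79, 171, 142 and 208 with Gpr84 alone. At the limit on Cst7 and Lpl, 30 members of the injured wild-type and 33 of the injured knockout-labelled library lay at 8 to 10 per 10000, and 57 and 62 microglia with both genes lay just above at 10 to 12. In endothelial-gated cells Il1a was detected in 0, 6.58, 2.17 and 7.94% of 23, 76, 46 and 126 cells, whose median depths were 5129, 4546, 6317 and 4274 UMIs. Gpr84 was detected there in 0, 3.95, 2.17 and 7.14%. Whether these UMIs are free RNA or come from the endothelial cells themselves was not tested. A value of 0 of 23 cells allows a share of up to 13.0%.

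Among microglia that passed every exclusion, the members' share in wild type was 51.8% (48.2 to 55.4%) in sham and 58.5% (55.4 to 61.5%) in injured tissue. The shares were 47.3% (44.4 to 50.2%) and 63.9% (61.4 to 66.4%) in the knockout-labelled pair. The gate depends on depth, so each cell was also thinned to 3000 UMIs, leaving out shallower cells (106, 61, 154 and 106 of the 755, 1014, 1174 and 1457 eligible cells). Leaving out shallower cells alone left 649, 953, 1020 and 1351 eligible cells. With the rule still read on all UMIs, the shares among them were 59.0, 61.1, 53.3 and 68.1%. Reading the whole rule at 3000 UMIs left 646, 837, 1009 and 1261 eligible cells. At that depth the shares were 24.0, 38.1, 22.4 and 41.3%. At 5000 UMIs they were 35.7, 53.4, 36.1 and 57.8%. At each depth both injured libraries lay above both sham libraries, and the gap between injured and sham was wider in thinned cells than in all UMIs. The rule read on thinned cells removed more eligible cells from the injured libraries, and the part of this in the wider gap was not tested. The exclusions removed far more cells after injury. Eligible cells were 96.7 and 98.4% of microglia in the sham libraries and 45.4% (wild-type) and 65.2% (knockout-labelled) in the injured ones. Of all microglia, members were therefore 50.1, 26.5, 46.5 and 41.6%, an order in which the injured libraries lie below the sham libraries. Each share is 1 mouse, so no test was made.

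**Figure D1:**
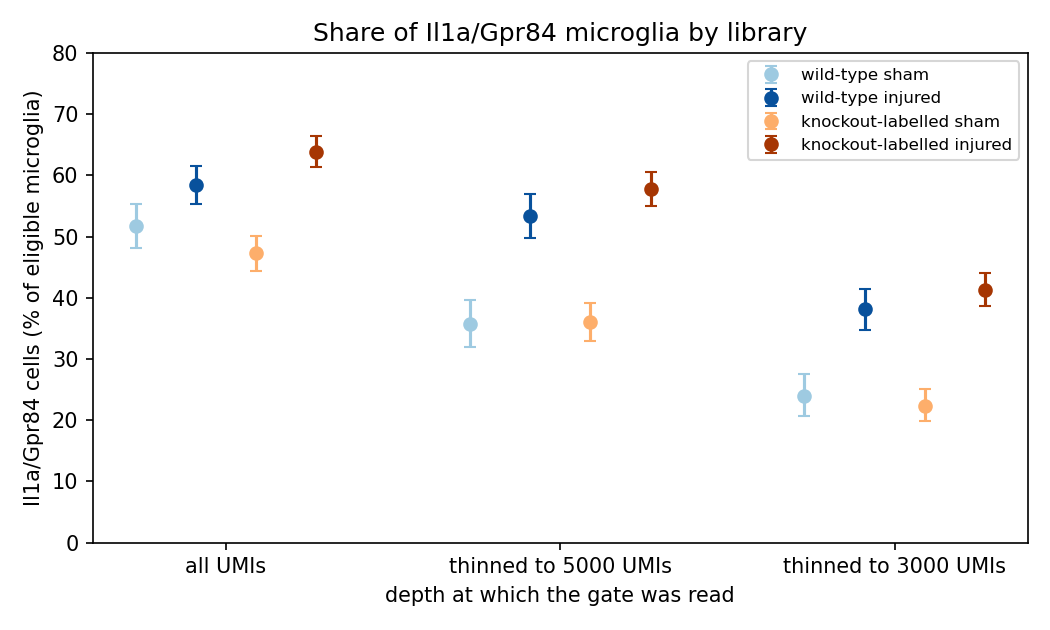
Share of Il1a/Gpr84 microglia among eligible microglia (vertical axis, %) in the 4 libraries, read on all UMIs and on cells thinned to 5000 or 3000 UMIs; bars are exact 95% intervals of counting error. At 3000 UMIs the injured libraries stand at 38.1 and 41.3% and the sham libraries at 24.0 and 22.4%.

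Dusp2, Tnfaip3 and the other activation genes, which the rule did not use, were higher in cells with more of the rule genes detected. In cells thinned to 3000 UMIs and gated at that depth, Dusp2 averaged 104.9, 136.5, 57.8 and 117.6 CPM in microglia with neither Il1a nor Gpr84. With Il1a alone it averaged 271.3, 288.9, 138.3 and 241.2 CPM, with Gpr84 alone 210.7, 261.5, 109.7 and 179.4 CPM, and with both 384.9, 411.7, 200.6 and 369.8 CPM. In each library the order was neither, Gpr84 alone, Il1a alone, both. Tnfaip3, which encodes the ubiquitin-editing NF-kB inhibitor A20, stood at 203.7, 175.4, 138.3 and 151.2 CPM with neither gene and at 514.0, 498.4, 427.7 and 404.4 CPM with both. Ccl3 stood at 546.3, 1875, 856.1 and 1435 CPM with neither gene and at 984.9, 2909, 1350 and 3046 CPM with both, and injured cells with neither gene lay above sham cells with both. Dusp2 and Tnfaip3 differed more between the cells with neither and with both genes than between injured and sham. Steps were less regular for Rrad, which stood at 71.0, 60.4, 32.2 and 58.1 CPM with neither gene and 92.5, 244.5, 122.4 and 198.3 CPM with both, but at 30.7 CPM with Gpr84 alone in the wild-type sham library. Ccl3 in that library was higher with Gpr84 alone (1176 CPM) than with both. P2ry12, the purine receptor of surveying microglia and a rule gene, changed little, at 2201, 1292, 2789 and 1755 CPM with neither gene and 2178, 1385, 2419 and 1564 CPM with both. These are descriptions of cells chosen by 2 genes and carry no test.

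**Figure D2:**
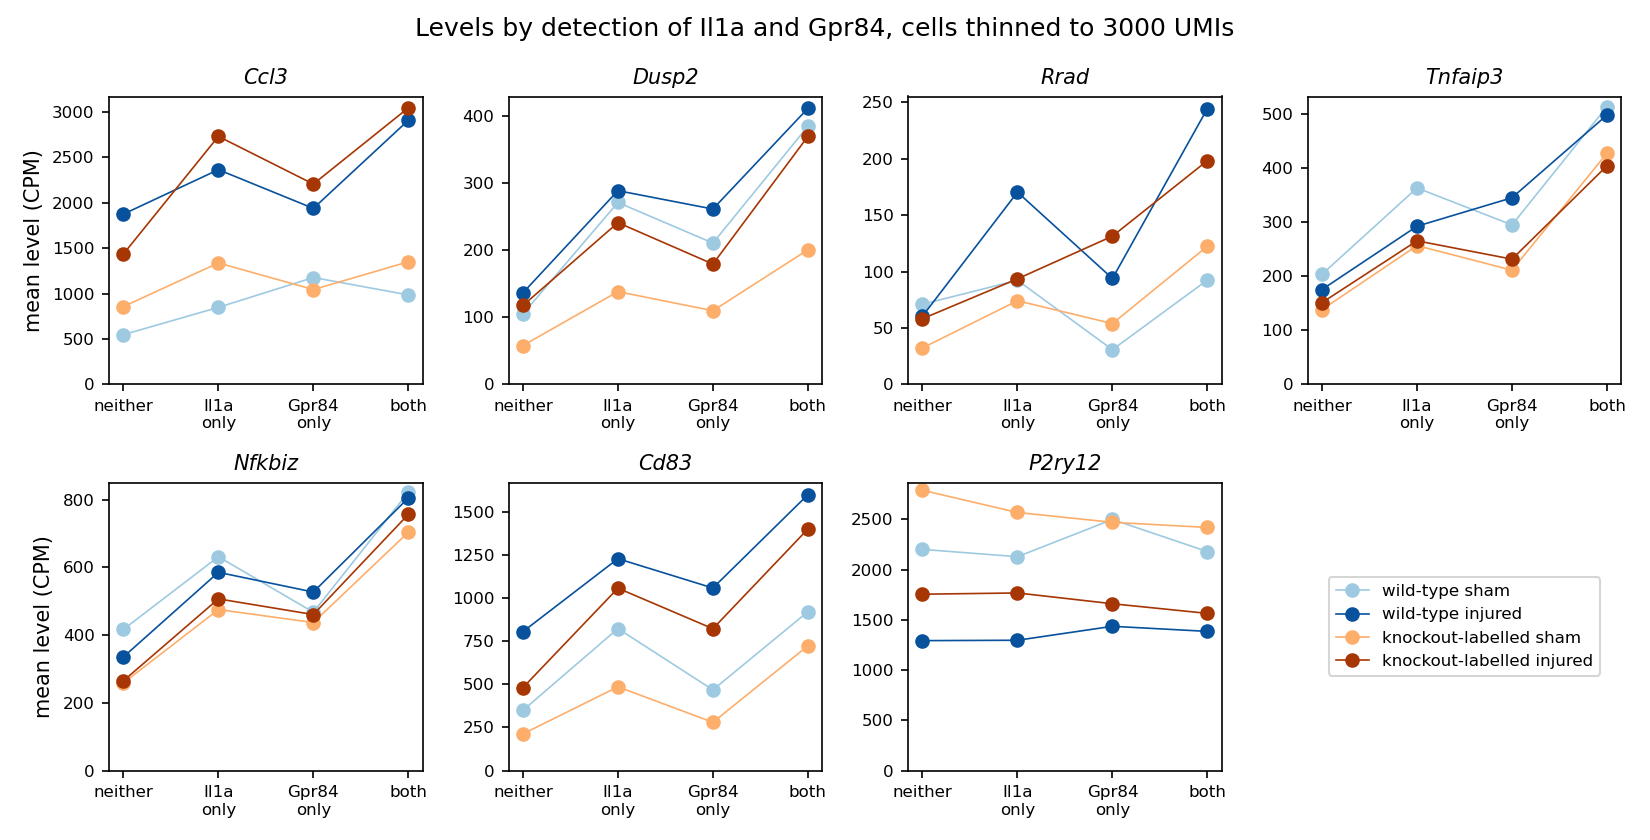
Mean level (CPM, vertical axes from 0) of 7 genes in microglia thinned to 3000 UMIs with neither Il1a nor Gpr84, with one of them, or with both; each line is 1 of the 4 libraries. Dusp2 goes from 57.8 to 136.5 CPM with neither gene to 200.6 to 411.7 CPM with both, and the lines of P2ry12 are nearly flat.

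Set against double-negative microglia of the same library, 14 of 5240 genes (0.267%) were at least 2-fold higher in members in all 4 libraries, on log2 values with a prior of 10 CPM, and 15 (0.286%) were at least 2-fold lower. The rule chose this contrast, so both counts are descriptions. The 14 were, by median log2 difference, Dusp2 (2.14), the activation marker gene Cd83 (1.74), Tnfaip3 (1.67), Nfkbiz (1.67), Arl5c (1.56), Tnf (1.47), Egr3 (1.42), Nlrp3 (1.40), Nfkbia (1.23), Maff (1.22), Casp4 (1.21), Bcl2a1d (1.18), Rel (1.16) and Csf1 (1.16). Ccl3 and Rrad, the label's markers besides Dusp2 that the rule did not use, were not among the 14. Nfkbia and Tnfaip3 encode inhibitors of NF-kB, Rel one of its subunits and Nfkbiz a nuclear cofactor. Nlrp3 encodes an inflammasome sensor, Casp4 an inflammatory caspase, Egr3 and Maff transcription factors, Bcl2a1d a survival protein (1 of several near-identical Bcl2a1 copies, between which the counting could split reads) and Csf1 the growth factor of microglia themselves. Nfkbia stood at 2631, 2355, 2411 and 2218 CPM in members and at 1178, 1028, 992.2 and 784.3 CPM in double negatives. Tnf stood at 287.2, 400.0, 309.1 and 401.7 CPM in members and at 100.5, 133.9, 119.5 and 40.7 CPM in double negatives. Neither gene's ranges overlapped between the cell sets, in sham or injured mice. Both genes were picked for a 2-fold difference in every library, so this adds no support.

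Members were deeper cells, since double negatives had medians of 3840, 5112, 4904 and 4410 UMIs. With the rule applied to cells thinned to 3000 UMIs, 3 genes passed 2-fold as higher and 0 as lower, and 2 of those 3 were among the 14. All 14 kept a difference above 0 in every library there, with medians from 0.74 (Csf1) to 1.42 (Dusp2). The 14 had been picked in the same cells by the same 2 genes, so this is a description and no independent check. The gene lists were read with the rule and counts on all UMIs, so depth was not matched. Of the list of NF-kB factors and feedback genes, 5 of 19 tested were at least 2-fold higher and 0 lower. The median log2 difference was 0.95 against 0.00 over all genes tested. The medians of this list in single libraries were 0.81, 0.69, 0.91 and 1.21. The immediate early transcription factors had 2 of 19 higher (median 0.74) and the list of genes known for ex vivo activation 1 of 23 (median 0.59). Homeostatic microglia genes had 0 of 16 higher and 0 lower (median 0.09), as did disease-associated microglia genes (0 of 15, median 0.05).

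The kB motif, which NF-kB binds, was searched as 3 G, any 2 bases, 3 T and 2 C, and the AP-1 motif, which Fos and Jun proteins bind, as TGANTCA, each on both strands, in RefSeq promoter windows of GRCm38.p6 (250 bases before to 50 after the start). The kB motif was in 535 of 32851 windows (1.63%) and the AP-1 motif in 2565 (7.81%). Of the 14 genes, 10 had a window, 5 of these held a kB match (Casp4, Csf1, Nfkbia, Rel and Tnfaip3) and 2 an AP-1 match (Bcl2a1d and Tnfaip3). Only the first window of each of these genes was searched, although Casp4, Nlrp3 and Tnfaip3 had 2 windows and Maff 3. Nfkbia, Tnfaip3 and Csf1 are shown as genes of the 14 with a kB match, and Il1a and Gpr84 as the genes that define the cells, with kB and AP-1 matches in capitals. The kB matches lie at -29 (Nfkbia), -12 (Tnfaip3) and -154 (Csf1), and the AP-1 matches at -136 (Tnfaip3) and -12 (Il1a), counted from the start. The 2 motifs did not overlap in these windows. A match is a description of letters, not a bound site. The windows are chr12:55492598-55492897 (Nfkbia), chr10:19015361-19015660 (Tnfaip3), chr3:107760420-107760719 (Csf1), chr2:129309923-129310222 (Il1a) and chr15:103310389-103310688 (Gpr84), all on the minus strand and printed 5′ to 3′.
Nfkbia: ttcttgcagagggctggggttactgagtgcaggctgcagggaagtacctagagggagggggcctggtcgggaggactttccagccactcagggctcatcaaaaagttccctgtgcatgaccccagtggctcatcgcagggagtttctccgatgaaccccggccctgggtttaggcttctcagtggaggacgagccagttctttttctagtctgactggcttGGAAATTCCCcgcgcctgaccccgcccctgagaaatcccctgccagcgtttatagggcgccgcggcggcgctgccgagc
Tnfaip3: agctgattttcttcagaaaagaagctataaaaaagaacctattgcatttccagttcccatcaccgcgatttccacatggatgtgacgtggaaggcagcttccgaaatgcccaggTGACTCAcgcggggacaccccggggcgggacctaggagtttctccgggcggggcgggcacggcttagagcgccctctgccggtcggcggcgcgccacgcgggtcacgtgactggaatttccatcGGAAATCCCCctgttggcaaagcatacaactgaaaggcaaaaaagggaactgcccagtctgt
Csf1: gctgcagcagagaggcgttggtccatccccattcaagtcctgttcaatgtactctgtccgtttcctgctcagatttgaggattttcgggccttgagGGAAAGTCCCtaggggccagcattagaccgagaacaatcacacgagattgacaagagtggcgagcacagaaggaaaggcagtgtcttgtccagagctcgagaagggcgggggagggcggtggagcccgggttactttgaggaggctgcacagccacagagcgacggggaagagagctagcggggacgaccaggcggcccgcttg
Il1a: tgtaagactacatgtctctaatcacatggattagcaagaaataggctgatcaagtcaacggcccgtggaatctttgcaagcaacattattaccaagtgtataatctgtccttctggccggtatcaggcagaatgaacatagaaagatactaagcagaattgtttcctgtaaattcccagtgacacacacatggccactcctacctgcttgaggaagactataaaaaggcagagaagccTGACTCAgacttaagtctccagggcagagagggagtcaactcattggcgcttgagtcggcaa
Gpr84: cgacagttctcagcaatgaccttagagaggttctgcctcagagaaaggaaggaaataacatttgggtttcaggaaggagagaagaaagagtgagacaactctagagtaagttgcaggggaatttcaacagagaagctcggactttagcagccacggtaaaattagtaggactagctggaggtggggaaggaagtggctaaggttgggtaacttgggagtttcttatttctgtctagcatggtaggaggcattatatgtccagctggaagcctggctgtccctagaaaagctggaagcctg

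The 15 genes lower in members were Mrc1, Pf4, Apod, Ms4a7, Dab2, F13a1, Pltp, Cbr2, Ccl7, Pla2g7, Wfdc17, Lgals1, Ifitm2, Serpinb6a and Igfbp4, and Mrc1, Pf4, Ms4a7, F13a1 and Cbr2 are known markers of border-associated macrophages. Mrc1, the mannose receptor, stood at 24.9, 3.22, 15.1 and 10.1 CPM in members and 302.8, 151.4, 207.8 and 173.7 CPM in double negatives. The summed markers of border-associated macrophages were 851.7, 545.1, 813.3 and 621.5 CPM in double negatives. With 3 of the 4 microglia genes required, 19 genes were higher and 0 lower by 2-fold, 13 of the 14 among them.

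Members were next compared with 2 other microglial states that the rule had set aside, in the injured libraries. Each state was named by its own gate on the genes of that state. Lpl/Cst7-gated cells also had to pass the interferon and cell cycle limits, and interferon-gated cells the cell cycle limit. The limits on Cd5l, Lyz2 and Ifi27l2a were not applied to either state, and interferon-gated cells had no limit on Cst7 and Lpl. Members were thus held to more limits than either state, and the part of this in the differences was not tested. Among microglia with both Il1a and Gpr84, 229 failed the Cd5l limit in the wild-type and 47 in the knockout-labelled injured library. The Lyz2 limit was failed by 94 and 8. Against Lpl/Cst7-gated microglia (332 wild-type and 302 knockout-labelled cells), which carry lipid-handling genes known from disease-associated microglia, 27 of 5299 genes (0.51%) were at least 2-fold higher in members in both libraries and 51 (0.962%) lower. Higher were Crybb1 (median log2 difference 1.82), the adhesion receptor gene Adgrg1, the fructose transporter gene Slc2a5, Selplg and Il6ra, the IL-6 receptor gene. Il6ra stood at 147.0 and 171.1 CPM in members (wild-type, knockout-labelled) and 66.3 and 67.8 CPM in Lpl/Cst7-gated cells. Lower were Spp1, which encodes osteopontin, at 525.7 and 79.8 CPM against 16385 and 3903 CPM, and Gpnmb, Lgals3, Igf1, Fabp5 and Ch25h. Of the disease-associated list 8 of 21 genes were lower and 0 higher (median -0.96, all genes 0.10). Ccl3 and Tnfaip3 were within 2-fold between the 2 states, with Ccl3 at 2665 and 2810 CPM in members and 1987 and 2300 CPM in Lpl/Cst7-gated cells. Tnf pointed the other way, at 400.0 and 401.7 CPM in members and 531.6 and 794.0 CPM in Lpl/Cst7-gated cells.

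Against interferon-gated microglia (279 and 252 cells), 0 of 5314 genes were at least 2-fold higher in members and 68 (1.28%) were lower. Of the interferon list 9 of 14 were lower (median -1.42, all genes 0.07). Irf7, a transcription factor of that response, stood at 36.9 and 43.9 CPM in members and 179.4 and 219.4 CPM in interferon-gated cells. Il1a was detected outside the members as well, at 353.9 and 589.2 CPM in interferon-gated and 424.3 and 522.8 CPM in Lpl/Cst7-gated cells. Disease-associated genes were also lower in members than in interferon-gated cells (list median -0.60), so the lower genes were not those of the interferon response alone. The rule used genes of both states, so these differences describe its cut and not the traits of a single state.

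**Figure D3:**
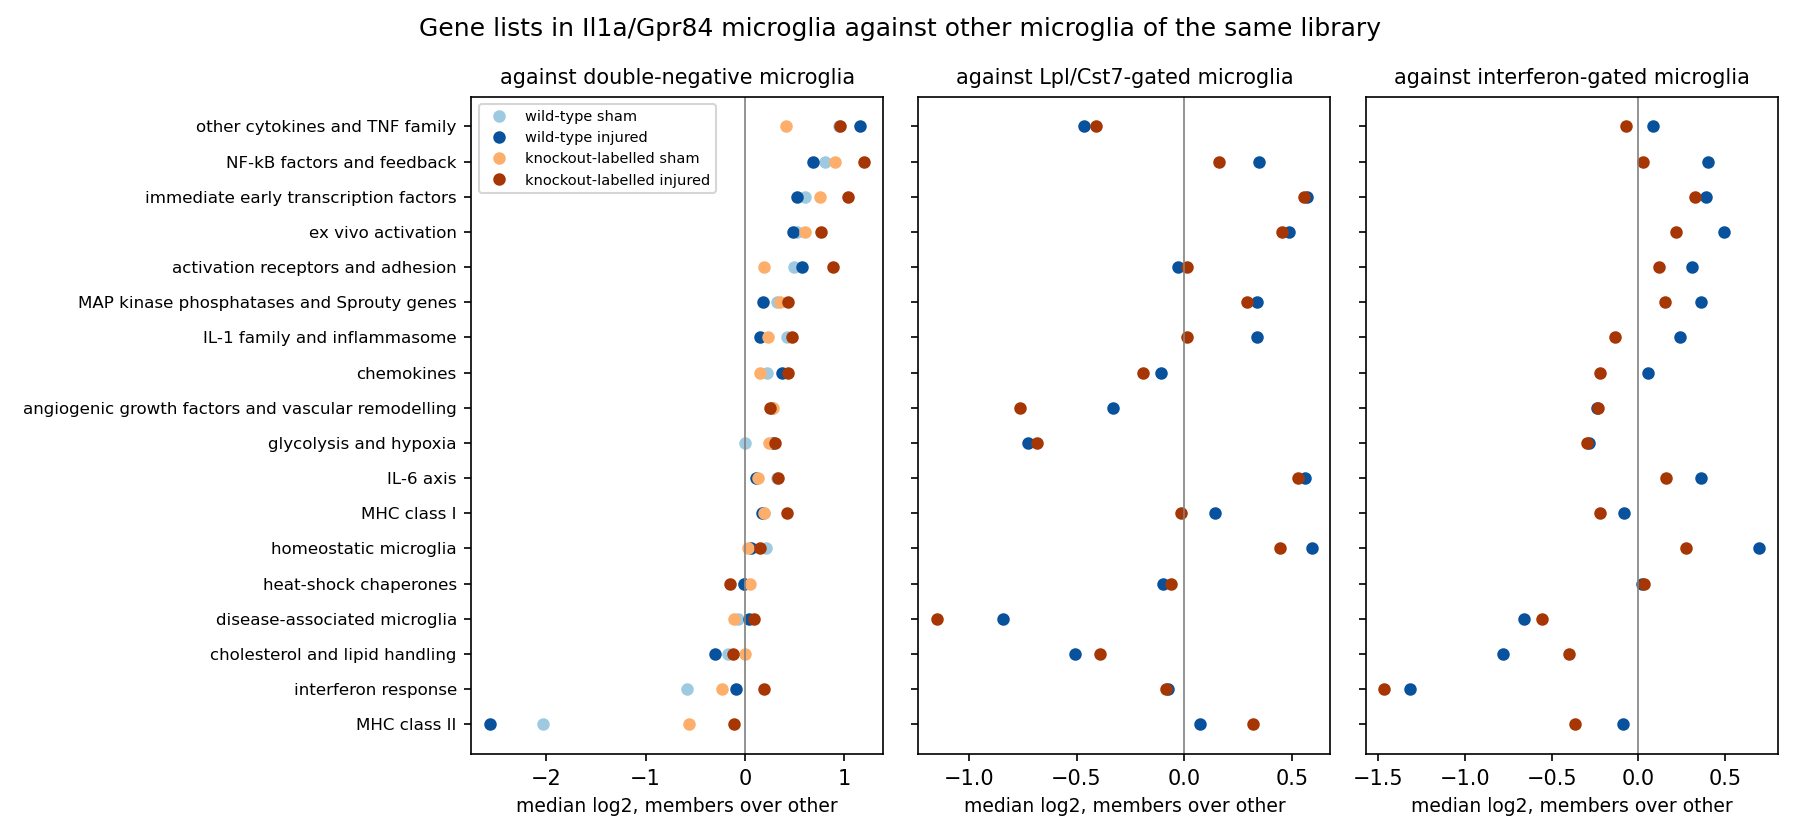
Median log2 difference (horizontal axes) of 18 gene lists between Il1a/Gpr84 microglia and double-negative, Lpl/Cst7-gated or interferon-gated microglia of the same library; each point is 1 library, and the vertical line marks no difference. NF-kB factors lie at 0.69 to 1.21 against double negatives, disease-associated genes at -1.15 and -0.84 against Lpl/Cst7-gated cells. All UMIs were used, with depth not matched.

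After the injury most of the members' chemokine genes and some of their cytokine genes rose. Counts were summed over members of each library and fitted with edgeR's quasi-likelihood test with terms for injury and genotype label, over 11537 genes without the 23 rule genes. The 4 libraries leave 1 residual degree of freedom, so the p-values rest on the spread shared across genes and on effects that add. At a Benjamini-Hochberg adjusted p under 0.05, 2119 genes (18.4%) rose and 1645 (14.3%) fell. TMM factors were 1.13, 0.88, 1.11 and 0.90. Without them, scaled by library totals alone, the median of all genes shifted to -0.34 and the counts were 918 and 4554, so that 16.8% of called genes were higher in place of 56.3%. The TMM fit is used below, and CPM values, which follow library totals, are printed beside it.

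Of 12 chemokine genes tested 11 rose and 0 fell (median log2 1.75, all genes -0.01), and by library totals alone the counts were the same. Ccl3 stood at 907.7 and 1087 CPM in the wild-type and knockout-labelled sham libraries and 2665 and 2810 CPM in the injured ones (log2 1.80 ± 0.09 SE, edgeR adjusted p = 1.40e-09). Ccl4, a chemokine gene closely related to Ccl3, stood at 1749 and 2014 CPM after sham surgery and 5145 and 4835 CPM after injury (log2 1.75). Cxcl2, a neutrophil attractant, went from 127.9 and 100.8 to 505.8 and 409.3 CPM (log2 2.34 ± 0.10). Ccl12 and Cxcl16 rose by 1.76 and 1.70, and Ccl2, a monocyte attractant, by 0.76. In each of these genes both injured libraries lay above both sham libraries. Ccl7 was the chemokine that did not pass, with an adjusted p of 0.33 by edgeR. Cxcl9 held 1 UMI in the sham libraries together and 274 in the injured ones, 262-fold by counts (exact interval 46.7 to 10404), and among knockout-labelled injured members 86 of its 238 UMIs lay in 1 cell.

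Of 12 genes of the IL-1 family and inflammasome 7 rose and 0 fell, and by library totals alone 3 rose and 1 fell. Il1b, the gene of IL-1 beta, stood at 247.7 and 174.4 CPM after sham surgery and 1246 and 848.6 CPM after injury (log2 2.64 ± 0.09, edgeR adjusted p = 1.20e-10). It was detected in 37.1 and 23.4% of sham members and 64.9 and 57.3% of injured members. Il1rn, the gene of the IL-1 receptor antagonist, rose by 2.95 and Pycard, an inflammasome adaptor gene, by 1.02. Nlrp3 rose by 0.54 (edgeR adjusted p = 0.00096), and by library totals alone its change was 0.20 with an adjusted p of 0.12 by edgeR, and without the wild-type injured library the adjusted p was 0.071. Il18 did not pass (log2 -0.05). Among other cytokines 5 of 10 rose and 0 fell, and by library totals alone 5 rose and 2 fell. Csf1 had the largest change of these, from 22.2 and 30.3 CPM to 187.7 and 147.0 CPM (log2 2.99 ± 0.16, edgeR adjusted p = 4.64e-09). Osm, the gene of the IL-6 relative oncostatin M, rose by 1.61 and Tnf by 0.76.

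Of 24 NF-kB factors and feedback genes 17 rose and 0 fell (median 0.51), and by library totals alone 8 rose and 0 fell. The 14 genes that set members apart from double negatives differed in their injury effect, from Csf1 (2.99), Bcl2a1d (2.21), Arl5c (1.83) and Cd83 (1.45) to several NF-kB feedback genes with small values. Nfkbia stood at 2631 and 2411 CPM after sham surgery and 2355 and 2218 CPM after injury (log2 0.20, edgeR adjusted p = 0.058). Nfkbiz gave 0.33, Tnfaip3 0.49 and Rel 0.21, and by library totals alone Nfkbia (-0.14), Nfkbiz (-0.01) and Rel (-0.13) pointed the other way. Larger changes were those of the survival genes Bcl2a1d (2.21) and Bcl2a1a (1.68) and the low-level genes Traf1 and Tnip3. Dusp2 rose by 1.15 ± 0.12 and Rrad by 1.15 ± 0.11, from 97.9 and 93.0 to 179.5 and 157.1 CPM (edgeR adjusted p = 1.30e-06). Dusp2 was the member of the MAP kinase phosphatase list that rose, and Dusp7, Dusp6 and Spred1 fell, of 10 tested. By library totals alone 1 rose and 6 fell.

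**Figure D4:**
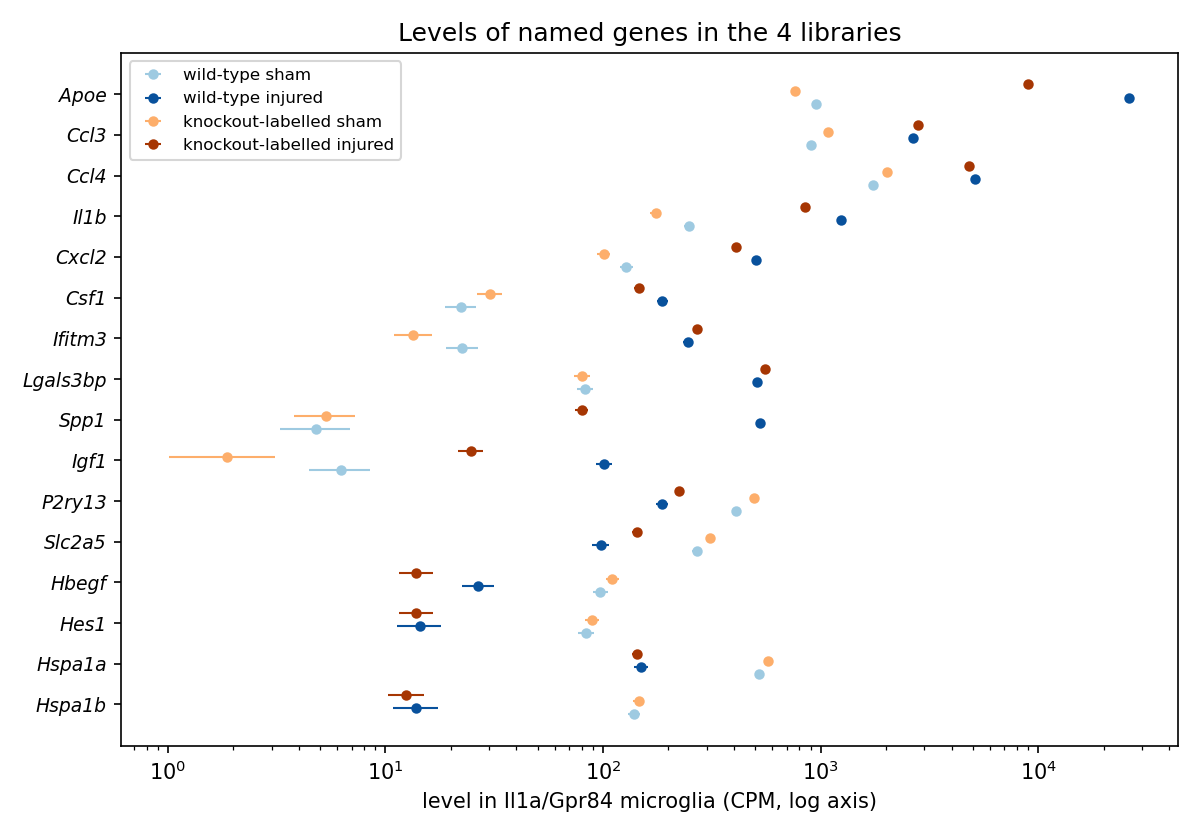
Levels (CPM on a log axis) of 16 named genes in Il1a/Gpr84 microglia of the 4 libraries; bars are exact 95% Poisson intervals, and each point is 1 mouse. Injured libraries lie to the right of sham libraries from Apoe to Igf1 and to the left from P2ry13 to Hspa1b, and Spp1 stands at 525.7 and 79.8 CPM in the 2 injured libraries.

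Surface receptors of activation changed in both directions, with 11 of 16 higher and 2 lower. Hcar2, a receptor for ketone bodies, went from 13.1 and 11.8 CPM to 69.9 and 59.5 CPM (log2 2.71 ± 0.14, edgeR adjusted p = 1.81e-09). Tlr2 rose by 1.90, Cd14 by 1.56 and Cd83 by 1.45. By library totals alone 7 were higher and 5 lower.

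Although cells with 4 or more of 6 interferon genes had been left out, 14 of 15 interferon-response genes tested rose and 0 fell (median 3.07), and by library totals alone 13 rose. Ifitm3, an antiviral membrane protein gene, stood at 22.5 and 13.4 CPM after sham surgery and 246.0 and 271.3 CPM after injury (log2 4.21 ± 0.17, edgeR adjusted p = 3.38e-10), and was detected in 12.5 and 8.83% of sham members and 56.2 and 60.7% of injured members. Slfn5 rose by 4.46 and Irf7 by 4.15. Genes of antigen presentation rose with them, with 6 of 6 class II genes (H2-Ab1 2.34, H2-Aa 2.08) and 10 of 11 class I genes (H2-D1 1.68, H2-K1 1.34, B2m 1.28). By library totals alone 4 class II and 7 class I genes rose and 0 fell.

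All 21 disease-associated microglia genes tested rose, also by library totals alone, within cells limited to fewer than 10 UMIs of Cst7 and Lpl per 10000. Apoe, which encodes apolipoprotein E, stood at 952.9 and 761.4 CPM in the sham and 26171 and 8954 CPM in the injured libraries (log2 4.51 ± 0.21, edgeR adjusted p = 9.83e-10). Spp1 stood at 4.82 and 5.31 CPM after sham surgery and 525.7 and 79.8 CPM after injury. Igf1, the gene of insulin-like growth factor 1, stood at 6.22 and 1.86 CPM and then 101.3 and 24.6 CPM (log2 4.28). Axl rose by 3.66 and Cd63, a lysosomal membrane protein gene, by 2.13. Gpnmb held 1 UMI in the sham libraries together and 327 in the injured ones. Apoc4, also an apolipoprotein gene, held 0 sham UMIs and 90 injured UMIs, at least 28.7-fold higher against a floor of 3 counts over the group. Of 17 genes of glycolysis and hypoxia 14 rose and 2 fell, with Mif (1.45) and the glycolytic enzyme gene Pgk1 (1.27) among the higher.

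More homeostatic and heat-shock genes fell than rose. Of 16 homeostatic microglia genes 10 fell and 4 rose (median -0.32), and by library totals alone 12 fell and 0 rose. Cx3cr1, the fractalkine receptor gene, stood at 3277 and 2985 CPM after sham surgery and 1571 and 1653 CPM after injury (log2 -0.62 ± 0.08, edgeR adjusted p = 2.51e-05). P2ry13, a purine receptor gene, fell by 0.80, Slc2a5 by 0.94 and Entpd1 by 0.68. Of 13 heat-shock genes 6 fell and 1 rose (Hspe1), and by library totals alone 10 fell and 1 rose. Hspa1b, an inducible Hsp70 gene, stood at 138.8 and 145.8 CPM in the sham and 13.8 and 12.5 CPM in the injured libraries (log2 -3.12 ± 0.14, edgeR adjusted p = 5.15e-10). Hspa1a fell by 1.56 and Hsph1 by 1.47.

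Of the 22 immediate early transcription factor genes tested 11 rose and 5 fell, with a median of 0.24 that turned to -0.09 by library totals alone, where 7 rose and 10 fell. Nr4a2 and Nr4a3 rose by 2.04 and 1.97, whereas Jun (-0.42), Egr1 (-0.44) and Klf4 (-0.64) fell. Fos stood at 3506 and 3853 CPM in sham and 3760 and 3589 CPM in injured members, and Jun at 4784 and 5127 CPM and then 2798 and 3050 CPM. The list of genes known for ex vivo activation was mixed, with 10 of 25 higher and 8 lower (median 0.06), and by library totals alone 3 higher and 13 lower. The part of tissue dissociation in these levels was not tested, and no library without it is present. Of the IL-6 axis 3 of 12 genes tested rose and 3 fell, and by library totals alone 2 rose and 8 fell. Osm and Socs3 (0.36) were among the higher, whereas Lifr (-1.49), Il6ra (-0.47) and Socs1 (-0.63) fell. Of the angiogenic list 8 of 17 rose and 2 fell (8 and 4 by library totals alone). Hbegf, a growth factor gene on it, stood at 97.3 and 110.2 CPM after sham surgery and 26.7 and 13.9 CPM after injury (log2 -2.10 ± 0.20), and Vegfa did not pass (-0.13). Of the list of cholesterol and lipid handling 5 of 13 rose and 2 fell, with a median of 0.26 that turned to -0.08 by library totals alone.

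By fold, the genes that fell furthest held few UMIs, and several are known from neurons. Kcnh7 held 23 UMIs in the sham libraries and 0 in the injured ones, at least 8.00-fold lower against the same floor. Tbr1, a transcription factor of cortical neurons, held 29 and 2 UMIs, and Opcml 32 and 2. The summed level of 5 neuronal markers in members was 120.3 and 96.4 CPM after sham surgery and 16.5 and 21.2 CPM after injury, and in double negatives 230.1 and 235.2 against 31.9 and 35.3 CPM. All 5 markers were present in every library, and their part in these changes was not tested. Lcn2, a neutrophil granule gene, fell in the fit, but 561 of its UMIs lay in 5 cells of the wild-type sham library. Without cells of shared barcodes its change was 0.91 with an adjusted p of 0.28 by edgeR.

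**Figure D5:**
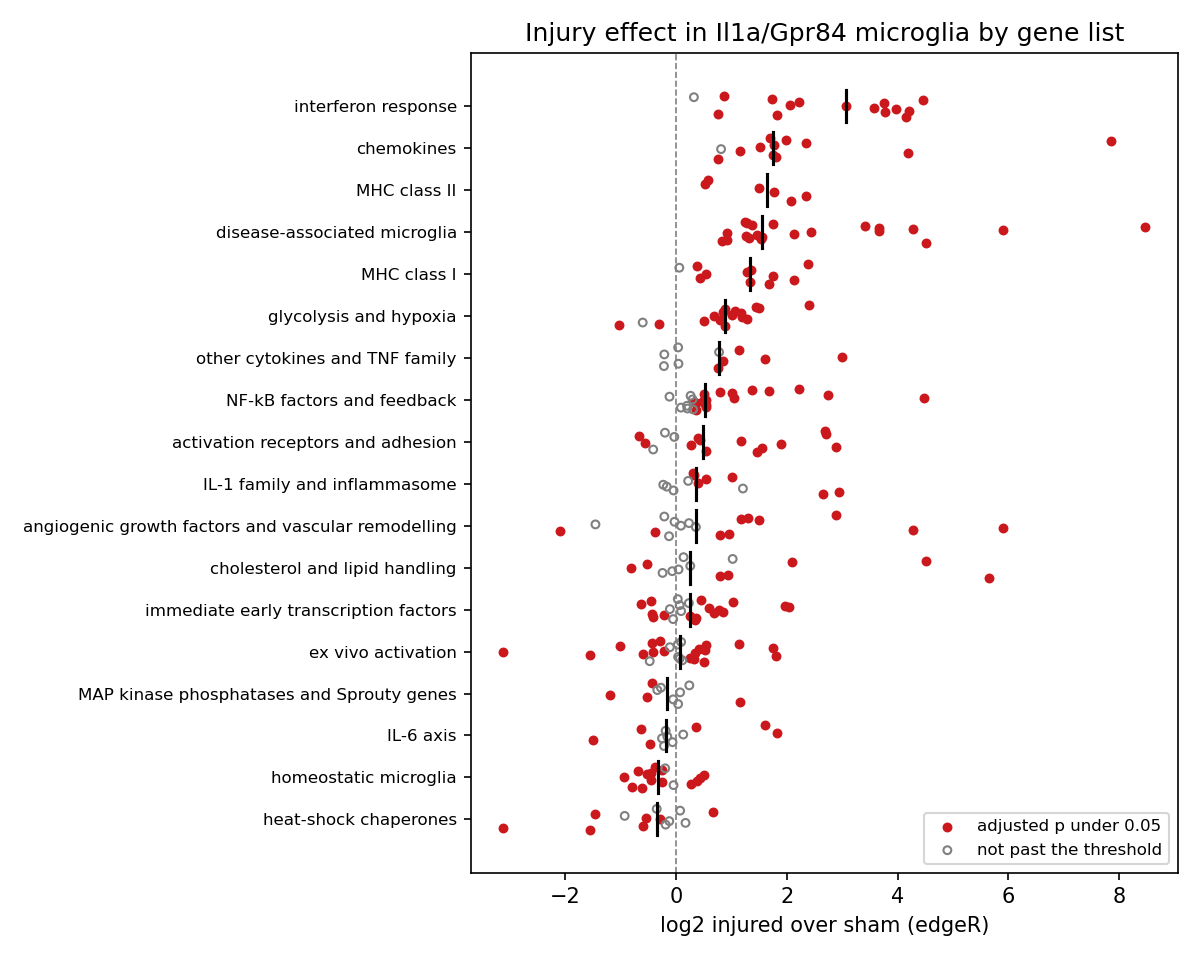
Injury effect (log2 injured over sham from edgeR, horizontal axis) of each tested gene in 18 lists within Il1a/Gpr84 microglia; filled points passed an adjusted p of 0.05, open points did not, black bars are list medians and the dashed line is the median of all genes. Medians run from 3.07 for interferon-response genes to -0.35 for heat-shock chaperones.

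Each genotype taken alone has 1 library a side and no test. In wild type 112 of 6176 genes (1.81%) were at least 2-fold higher in injured members and 165 (2.67%) lower. In the knockout-labelled pair 81 of 6082 (1.33%) were higher and 54 (0.888%) lower. Of the higher genes 68 were shared, 60.7% of the wild-type and 84.0% of the knockout-labelled list, and of the lower genes 46, 27.9% of the wild-type and 85.2% of the knockout-labelled list. With median-of-ratios factors in place of library totals the counts were 244 and 46 in wild type and 174 and 18 in the knockout-labelled pair. Il1b gave log2 ratios of 2.29 and 2.22 in the 2 pairs, Csf1 2.62 and 1.96, Ccl3 1.54 and 1.36, Ifitm3 2.98 and 3.59, and Hspa1b -2.64 and -2.79. Spp1 gave 5.18 and 2.55 and Apoe 4.76 and 3.54.

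Between the genotype labels few genes differed. In the same edgeR fit 12 of 11537 genes (0.104%) were higher in knockout-labelled members and 92 (0.797%) lower. DESeq2 called 0 higher and 17 lower, with 164 genes at an unadjusted p under 0.05, and a fit without the injury term called 0 and 0, with 75 genes at an unadjusted p under 0.05. None of the 15 interferon and 6 class II genes tested passed, and of 12 chemokines 2 were higher (Cxcl9 and Ccl9) and 0 lower. Ccl3 stood 0.16 higher in log2 (± 0.08 SE, edgeR adjusted p = 0.72) and Dusp2 gave -0.32 (0.49). Il1b was lower by 0.54 on the log2 scale (± 0.09, edgeR adjusted p = 0.0057), at 848.6 against 1246 CPM after injury and 174.4 against 247.7 CPM after sham surgery. Ccl9 was higher by 0.54 (± 0.10, edgeR adjusted p = 0.015), at 356.6 against 237.5 CPM and 152.7 against 107.2 CPM. Il6 itself was higher by 1.26 (± 0.17, edgeR adjusted p = 0.0012, not called by DESeq2), detected in 15.7 and 10.4% of knockout-labelled members (sham, injured) and 14.1 and 5.56% of wild-type members.

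The lower genes held 5 of the 21 disease-associated genes tested, of which DESeq2 kept Igf1 and Lgals3 but not Spp1, Gpnmb and Apoe. Igf1 was lower by 2.03 (± 0.16 SE, edgeR adjusted p = 4.02e-06), at 24.6 against 101.3 CPM after injury and 1.86 against 6.22 CPM after sham surgery. Spp1 (-2.30), Lgals3 (-1.65), Gpnmb (-1.82) and Apoe (-0.95) were also lower, as were the apolipoprotein genes Apoc1 (-2.67) and Apoc2 (-2.33) and Anxa2 (-1.36). The endothelial markers Cldn5 (-2.58) and Flt1 (-1.60) and the macrophage marker Ms4a7 (-2.25) were lower in the same fit, whereas Mrc1 (0.01) was not. Whether free RNA or other cells contribute to the lower genes, Igf1, Spp1 and Apoe included, was not tested. For Spp1 and Gpnmb the difference lay in the injured libraries, since Spp1 stood at 4.82 and 5.31 CPM in the 2 sham libraries and 525.7 and 79.8 CPM in the injured ones. Spp1 was detected in 76.6% of injured wild-type and 19.0% of injured knockout-labelled members. A difference between the 2 injury effects leaves no degree of freedom and was not tested. Set side by side, the injured knockout-labelled library had 2 of 5452 genes (0.0367%) at least 2-fold higher than the injured wild-type library and 21 (0.385%) lower. Spp1 was 6.59-fold lower (95% interval 6.07 to 7.15), Igf1 4.11-fold (3.52 to 4.82), Fabp5 3.40-fold (3.05 to 3.79) and Apoe 2.92-fold (2.90 to 2.95). The disease-associated list had 6 of 21 genes past 2-fold as lower and 0 as higher, with a list median of -0.09 against 0.04 over all genes.

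Other genes of these lists rest on few cells. The 2 higher genes were Cxcl9 and Ccl7. Of the lower ones, Mmp12, a macrophage elastase gene, held 190 of its 192 UMIs in 1 injured wild-type cell, and S100a8 and S100a9 held 145 of 234 and 197 of 257 in 1 cell. Between the sham libraries 5 of 6191 genes (0.0808%) were at least 2-fold higher in knockout-labelled members and 18 (0.291%) lower, and the neutrophil and monocyte genes S100a9, S100a8, Camp, Ngp, Lcn2, Ltf, Chil3 and Retnlg led the lower ones. Without cells of shared barcodes 12 genes were lower, 9 of them among the 18, and 7 were higher, with all 5 among them. S100a8 stood at 630.2 CPM in wild-type sham members and 320.6 CPM without its highest cell. Ttr, a choroid plexus gene, was higher in the edgeR fit by 1.97, at 13.4, 1.33, 39.4 and 15.2 CPM in the 4 libraries, and was detected in 8.70, 1.01, 26.8 and 11.3% of members. Whether free RNA, other cells or the genotype underlies such genes cannot be told apart with 1 mouse a group.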

How the data were processed

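Single-cell RNA libraries (10x 3′ chemistry) of 4 mice, 1 for each combination of genotype label and treatment, were deposited as raw UMI counts per gene and barcode, which the submitters' processing notes credit to Cell Ranger 6.0.1 and mm10. No other step of theirs is given in the sources used here. Barcodes numbered 4425 (wild-type sham), 4731 (wild-type injured), 2682 (knockout-labelled sham) and 4202 (knockout-labelled injured), and 992, 2996, 1392 and 2638 passed the filters. The cells were chosen by the rule printed in the report. The members, lists and comparisons were chosen with earlier results of these data known.

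UMIs were summed per library and set and divided by their total (CPM). Intervals are exact 95% Poisson (CPM), conditional binomial (ratios) and Clopper-Pearson (shares). Pairs of libraries and sets of cells were compared on log2 values with a prior of 10 CPM, for genes with at least 20 CPM on one side and 50 UMIs in all, and called at 2-fold in every library. Injury and genotype label were tested with edgeR 4.0.16 (glmQLFit and glmQLFTest, TMM, filterByExpr, R 4.3.3), with Benjamini-Hochberg adjustment over all genes tested, and DESeq2 1.42.0 as an alternative. The SE printed with a log2 value was derived from the edgeR test, as the absolute log2 value divided by the square root of its F statistic. Doublets were scored with Scrublet in scanpy 1.11.5 at 0.8% per 1000 barcodes. They stayed in, and 8, 5, 8 and 30 members were called. Thinning drew UMIs without replacement (seed 0). The edgeR step was run on counts simulated with the same spread for every gene, taken from this fit, and no genotype effect. That run cannot show whether the calls made on 4 single-mouse libraries are sound. Named genes were the 8 largest changes in each direction and up to 4 a list, plus the label's markers. Genes named outside that rule (among them Rel, Fos, Egr1, Il18, Vegfa, Socs3, Ccl2, Ccl12, Cxcl16, Cd63, B2m and the lower genes past the first 8) were chosen from the lists after their values were seen. Positions come from GENCODE vM21 (GRCm38) and promoter sequences from RefSeq (GRCm38.p6). The symbol Aldoa belongs to several identifiers and was left out.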

Additional observations from a re-analysis of the deposited data

Results flagged for a closer look

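The injury effect of Ccl7, a monocyte attractant gene, pointed in opposite directions in the 2 genotypes, with a log2 ratio of -1.21 in the wild-type pair and 1.80 in the knockout-labelled pair. It is listed because injured over sham was lower in one pair and higher in the other. The difference was not tested. In the wild-type sham library 192 of its 277 UMIs lay in 1 member, and in the injured knockout-labelled library 226 of 346, and the levels without those cells were 13.2 and 12.9 CPM, beside 10.4 CPM in wild-type injured and 2.39 CPM in knockout-labelled sham members, each likewise without its highest cell.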

How the results depend on the processing

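No paired analysis was possible because each group is 1 library. The share of members moved with the gate, in the order wild-type sham, wild-type injured, knockout-labelled sham, knockout-labelled injured. With at least 2 UMIs of each gene it was 31.9, 37.3, 27.3 and 45.2%, on cells thinned to 3000 UMIs 24.0, 38.1, 22.4 and 41.3%, and at 5000 UMIs 35.7, 53.4, 36.1 and 57.8%. With 3 of 4 microglia markers it was 56.2, 60.6, 50.3 and 66.8%. In each of these settings both injured libraries stayed above both sham libraries.

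The injury counts were 918 higher and 4554 lower by library totals alone and 1007 and 369 with DESeq2. Leaving out each library in turn, with injury as the only term, gave 1379 to 1972 higher and 728 to 1284 lower, the lowest higher count without the injured wild-type library and the lowest lower count without the wild-type sham library. Lcn2 changed sign without shared barcodes, an alternative chosen after seeing the data (0.91), with DESeq2 (0.26) and across the fits that leave out a library (-5.76 to 6.37, the latter without the wild-type sham library).

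In the genotype label comparison, higher genes numbered 35 with 2 UMIs of each gene, 22 without doublets, 51 without the exclusions, 21 with 3 of 4 microglia markers, 35 without shared barcodes, 46 without a low-count filter and 0 with DESeq2 or without the injury term. Lower genes numbered 290 without the exclusions, 177 without a low-count filter, 17 with DESeq2 and 0 without the injury term. Cxcl9 turned to -0.76 on thinned cells.

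Against double negatives, 23 genes were higher with 2 UMIs of each gene and 3 on thinned cells. Lower genes numbered 0 on thinned cells or with 3 of 4 markers and 9 with cells weighted equally. Ccl7 (0.087) and F13a1 (0.21) changed sign with 3 of 4 markers.

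In the wild-type injury pair 244 genes were higher and 550 lower without the exclusions, 244 and 46 with median-of-ratios factors, 425 lower with a prior of 1 CPM and 94 lower with cells weighted equally. In the knockout-labelled injury pair 156 were higher and 115 lower without the exclusions, 174 and 18 with median-of-ratios factors and 143 lower with a prior of 1 CPM. Between the injured libraries 1 gene was higher with 2 UMIs of each gene, without doublets, without the exclusions or with 3 of 4 markers, and 0 with cells weighted equally, and 52 were lower without the exclusions and 33 with a prior of 1 CPM. There Ccl7 turned to -0.12 with 2 UMIs of each gene, -1.29 on thinned cells and -0.10 without the exclusions, and on thinned cells Cxcl9 to -0.057, Ifitm1 to 0.030 and Mmp12 to 0.18. Between the sham libraries 3 genes were higher with 2 UMIs of each gene. The causes were not tested. One mouse a group, 1 residual degree of freedom and genes resting on single cells limit what these values show.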
